A study of Mus musculus with 21 samples.

Results

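The deposited small RNA table of 7 primary mouse cell types held 376 entries of the class Rfam other sncRNA, out of 61628 entries in all, and these 376 entries are described here over the cell types. They were chosen by the class label that the table gives to each entry, and that rule used no measured value. Earlier results of these data were known at that choice. Rfam is a database that groups noncoding RNAs and RNA elements into families by shared sequence and structure. The class gathers the Rfam families that the table does not list as miRNA, piRNA, snoRNA, snRNA, rRNA or tRNA, and it spans vertebrate RNAs such as Y RNA, vault RNA and 7SK RNA as well as families named for bacteria, viruses and CRISPR repeats.

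The 21 libraries fell into 7 groups of 3: germ cells (Germ), peritubular myoid (PTM) cells, Sertoli cells and Leydig cells of the testis, and vascular (VSMC), intestinal (ISMC) and tracheal (TSMC) smooth muscle cells. Germ cells give rise to sperm, PTM cells are the contractile cells around the seminiferous tubules, Sertoli cells nurse the germ cells, and Leydig cells make testosterone. All were primary C57BL/6J cells that had no treatment and had been grown with 10% serum (FBS) in DMEM/F12. The testicular cells were isolated by published methods, whereas the smooth muscle cells were bought from a supplier, so tissue and source cannot be told apart. The sources used here give neither the animals' age nor the sex of the smooth muscle cell donors, while the testicular cells come from males. Also not given is the origin, from 1 or several animals or cultures, of each type's 3 libraries. The p-values thus measure only the spread between these libraries, which may be technical.

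Y RNAs are short stem-loop RNAs bound by the Ro60 protein, vault RNAs are part of the large vault particle, and 7SK RNA holds the transcription elongation factor P-TEFb in an inactive complex with HEXIM proteins. The signal recognition particle (SRP) RNA carries nascent secreted proteins to the endoplasmic reticulum, and the RNAs of RNase P and RNase MRP are the cores of enzymes that cut the precursors of tRNA and rRNA. Transfer-messenger RNA (tmRNA) is a bacterial RNA that frees stalled ribosomes. Small RNA sequencing reads short tags, so a value here is the level of tags assigned to a family and not the level of the whole RNA. The table gives no tag sequences, tag lengths or positions within an RNA, so whether tags of an entry named for a bacterium, a virus or a CRISPR repeat came from such an organism or from mouse RNA was not tested.

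The mouse genes of 3 of the vertebrate RNAs that the results turn on are shown as GENCODE vM21 gives them on GRCm38, to show the molecules from which such tags can be cut. Rny1 lies at chr6:47788069-47788180 on the minus strand and has 112 bases, and Rny3 lies at chr6:47781624-47781725 on the plus strand and has 102 bases. Each has 1 exon and no overlapping annotated gene. Capitals mark the longest runs that both share in the first 40 and the last 45 bases, which lie in the stem closed by the ends of a Y RNA. The entry named Y RNA is not split by gene, so Rny1 and Rny3 cannot be told apart.

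Rny1: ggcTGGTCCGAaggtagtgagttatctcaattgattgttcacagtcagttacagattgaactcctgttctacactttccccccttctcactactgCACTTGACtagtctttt

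Rny3: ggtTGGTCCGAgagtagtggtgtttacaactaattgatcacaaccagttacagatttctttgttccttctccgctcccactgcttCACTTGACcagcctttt

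Rn7sk, the 7SK gene, lies at chr9:78175303-78175633 on the minus strand and has 1 exon of 331 bases with no overlapping annotated gene. Its first bases are shown, with the 3 GATC runs in capitals. In human 7SK the hairpin at this end, with its GAUC motifs, is the part bound by HEXIM.

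Rn7sk, first bases: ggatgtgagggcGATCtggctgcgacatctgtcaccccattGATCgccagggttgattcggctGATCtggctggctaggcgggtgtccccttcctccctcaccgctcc

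The libraries held 18.1 to 26.1 M tags (M, 1e6 tags), of which 22922 to 164967 belonged to the class. Levels below are TPM, here tags per 1e6 tags of all entries of a library, with no correction for RNA length, since tags and not whole RNAs were counted. Marker miRNAs followed the cell type labels in part. Per 1e6 mature miRNA tags, the germ cell marker miR-449a-5p averaged 203841 in germ cells and at most 53.2 in the other types, and miR-202-5p, a marker of gonadal cells, averaged 30.8 to 96.2 in the 4 testicular types and 0.0586 to 0.599 in the smooth muscle types. miR-143-3p, a smooth muscle marker, averaged 19756 in PTM and 9842 to 16545 in smooth muscle cells but was highest in Sertoli cells (34148). The other smooth muscle marker, miR-145a-5p, averaged 3038 in Sertoli, 2310 in PTM and 1457 in VSMC. In ISMC (685) and TSMC (589) it lay near Leydig (575) and germ cells (513), so it did not mark these smooth muscle types. Among markers of other cell types, endothelial miR-126a-3p averaged 3609 in VSMC and 188 to 1400 in the other types, the blood cell marker miR-142a-3p reached 15.6 in germ cells and averaged under 1 in all others. Other blood cell markers were not confined to germ cells: miR-150-5p averaged 240.7 in PTM, 145 in germ cells, 63.4 in Sertoli, 49.7 in Leydig and at most 34.7 in smooth muscle types, and miR-223-3p 8.98 in germ cells, 7.61 in ISMC, 7.58 in PTM and less in the others. Erythroid miR-451a averaged at most 358 (germ cells).

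The class took 0.0887%, 0.115% and 0.0879% of all tags in the germ cell libraries, against 0.249% to 0.783% in the 18 somatic libraries, and the groups did not overlap. By type it took 0.368% in PTM, 0.610% in Sertoli, 0.519% in Leydig, 0.516% in VSMC, 0.606% in ISMC and 0.389% in TSMC. Sertoli library 3, with 0.271% against 0.776% and 0.783% in the other 2 Sertoli libraries, stood apart from its type. The order of germ and somatic cells turned with the denominator. When piRNAs and the 4 single rows for intergenic, intron, exon and repeat tags were left out of the total, the class took 2.07 ± 0.29% in germ cells (SD, n = 3) and 0.982 ± 0.266% in the 18 somatic libraries. Those left-out entries held on average 24.3% (piRNA) and 71.0% (single rows) of germ cell tags, against 1.86% and 46.8% of somatic tags. Per 100 mature miRNA tags there were 3.46 ± 0.80 class tags in germ cells and 1.15 ± 0.34 in somatic cells.

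A few entries held nearly all tags of the class. The tmRNA entry had 46.4% of the 1961306 class tags, tmRNA and Y RNA together 78.9%, the 4 leading entries 90.9% and the leading 10 98.3%. Of the 376 entries, 16 had no tag in any library, 65 had 1 tag and 214 had fewer than 10, while 60 had at least 100 and 18 at least 1000. A total of 31 entries were seen in all 21 libraries and 96 in a single one. A mean of 99.0 entries was seen in a germ cell library, against 120 to 133 in the somatic types. At equal depth, that is the expected number in 22922 class tags, this order turned, with a mean of 96.4 entries in germ cells (94.4 to 100) and 80.0 in somatic libraries (64.3 to 105). The groups overlapped through PTM library 1 (105) and Sertoli library 3 (98.1).

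By family, tmRNA entries (4 entries) held 48.1% of class tags, Y RNA (2) 32.7%, vault RNA (1) 6.38%, bacterial or archaeal RNAs (156) 6.31%, 7SK (1) 1.97%, regions of long noncoding RNAs (58) 1.85%, SRP RNA (1) 1.65%, RNase P and RNase MRP (2) 0.511%, viral or retroviral elements (58) 0.232%, elements of messenger RNAs (40) 0.217% and CRISPR repeats (33) 0.137%. The 19 other entries, led in mean level over the types by fungal SRP RNA, Wingless localisation element 3 and Class I RNA, shared 289 tags. The telomerase RNA entry (RF00024), the template RNA of telomerase, had 2 tags in all, 1 in Sertoli library 3 and 1 in ISMC library 3.

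**Figure D1:**
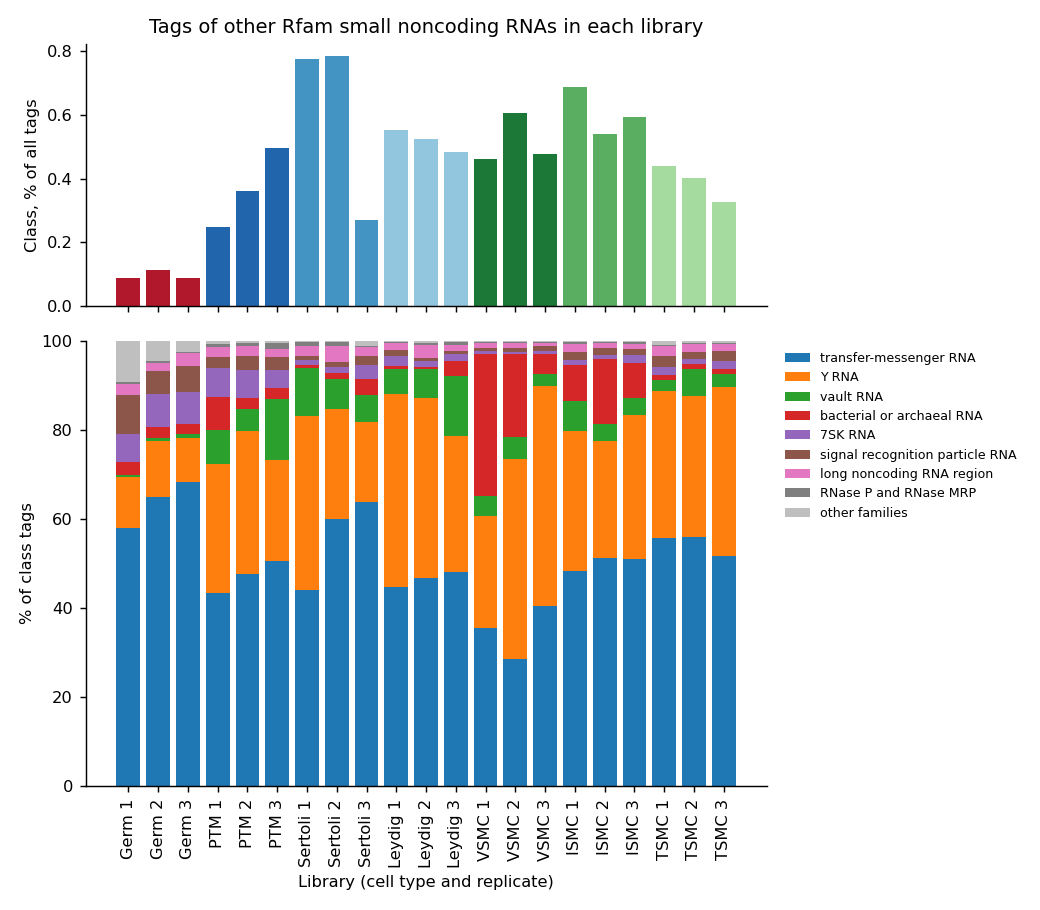
The upper bars give the class as a percent of all tags in each of the 21 libraries and the lower bars its division into families as a percent of class tags, with no error bars since each bar is 1 library. Germ cell libraries lie at 0.0879% to 0.115% of tags, below all 18 somatic libraries, and within the class the bacterial or archaeal families reach 31.9% in VSMC library 1.

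A floor of 10 counts reached by 3 or more libraries left 61 of the 376 entries to test, and the other 315 were too sparse. Differences among cell types were tested with edgeR's quasi-likelihood test over all 19332 entries of the table that passed the same filter, with tags of all entries as library size and Benjamini-Hochberg adjustment, and an entry was called at an adjusted p under 0.05. Of the 61 entries, 45 (73.8%) differed among the 7 types, against 92.7% of all entries tested and 82.7% of those other than piRNAs, below both backgrounds. SRP RNA (adjusted p = 0.14, edgeR) and the tmRNA entries named for Betaproteobacteria (0.072) and Alphaproteobacteria (0.099) were among the 16 that were not called.

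Against the 6 somatic types taken with equal weight, germ cells had 9 of the 61 entries higher and 28 lower, and 24 were not past the threshold. The 37 calls are 60.7% of the entries, against 90.6% of all entries tested and 73.0% of those other than piRNAs. Per direction, 83.5% of all entries tested were called higher and 7.14% lower, and without piRNAs 10.9% were called higher and 62.1% lower. The median log2 fold change was -1.88 over the 61 entries, 8.27 over all entries tested and -3.87 over those other than piRNAs. The split depended on the scaling, with 6 higher and 28 lower by TMM, 23 and 10 by RLE, 22 and 11 per class tag, and 30 and 4 when piRNAs and single rows were left out of the total. The median of the 61 entries was then -3.51, 0.49, 0.35 and 1.44 in the same order. Under all 5 scalings 6 of the 9 higher and 4 of the 28 lower entries were called in the same direction. Of the 6 higher entries, RF01109, RF01322 and RF02271 reached 10 counts only in germ cell libraries. The filter thus favoured their calls as higher, and keeping them under each scaling is no separate support. Of the 4 lower entries, RF00010 and RF02553 did not reach 10 counts in any germ cell library, so the same holds for their calls as lower. The shares of rRNA and tRNA tags moved with this comparison too: rRNA took 1.22% to 1.43% of tags in germ cells and 1.39% to 8.49% in somatic libraries, and tRNA 0.00249% to 0.00609% and 0.0118% to 0.120%. Their part in the results was not tested.

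Among the vertebrate RNAs, vault RNA (RF00006) was one of the 4 entries lower in germ cells under all 5 scalings. It stood at 2.66, 6.67 and 7.94 TPM in germ cells, against 99.0 to 840 (median 238) in the 18 somatic libraries. Every somatic library was above every germ cell library, and the log2 fold change was -5.71 ± 0.77 (SE; edgeR adjusted p = 3.0e-07), or -3.33 per class tag. By type the means were 348 in PTM, 513 in Sertoli, 436 in Leydig, 215 in VSMC, 301 in ISMC and 149 in TSMC. Within types it varied widely, with 193, 177 and 675 in the PTM libraries, 840, 537 and 162 in the Sertoli libraries and 311, 339 and 657 in the Leydig libraries, so the somatic types overlapped.

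Y RNA (RF00019) stood at 102, 145 and 85.6 TPM in germ cells, against 475 to 3018 (median 1452) in somatic libraries, again without overlap. Its log2 fold change was -3.86 ± 0.51 (edgeR adjusted p = 2.6e-07). It was -1.52 per class tag and -0.42, no longer past the threshold, when piRNAs and single rows were left out of the total. Among somatic types the means were 996 in PTM, 1805 in Sertoli, 1989 in Leydig, 2072 in VSMC, 1802 in ISMC and 1308 in TSMC. The Sertoli libraries alone spanned 3018, 1922 and 475, which covers all the somatic type means. As a share of the class, the Y RNA family took 11.3% in germ cells and 27.2% to 39.8% in the somatic types.

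The Y RNA-like entry (RF02553) was put in the same family list by its name alone, and whether its tags came from mouse Y RNA was not tested. It was also lower in germ cells under all 5 scalings (log2 fold change -4.86 ± 0.76, edgeR adjusted p = 2.7e-06). It stood at 0.116, 0.318 and 0.192 TPM against 0.954 to 31.3 (median 8.06) in somatic libraries. Its type means ran in another order than those of Y RNA, a difference that was not tested: ISMC (20.1 on average), TSMC (12.9), Sertoli (8.58) and VSMC (7.66) lay above Leydig (1.91) and PTM (1.72).

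RNase P RNA (RF00009) and RNase MRP RNA (RF00030) were both lower in germ cells in TPM. RNase P stood at 3.35, 4.41 and 2.42 TPM in germ cells and 4.09 to 79.2 (median 14.4) in somatic libraries, which overlap slightly, with a log2 fold change of -2.34 ± 0.68 (edgeR adjusted p = 0.0028) that turned to 0.03 per class tag and 1.10 when piRNAs and single rows were left out. RNase MRP stood at 0.193, 0.754 and 0.268 and at 0.486 to 10.1 (median 1.73), with a log2 fold change of -2.50 ± 0.83 (edgeR adjusted p = 0.0073) that turned to 0.77 when piRNAs and single rows were left out and ended as a call without germ library 1 (-2.17, adjusted p = 0.052, edgeR).

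7SK RNA and SRP RNA were the vertebrate RNAs whose levels in TPM in germ cells lay within those of the somatic types. 7SK (RF00100) stood at 57.2, 86.7 and 63.6 TPM in germ cells and 25.5 to 225 (median 76.6) in somatic libraries (log2 fold change -0.15 ± 0.37, edgeR adjusted p = 0.74). SRP RNA (RF00017) stood at 76.5, 58.4 and 50.8 in germ cells and 32.5 to 139 (median 69.9) in somatic libraries (-0.20 ± 0.39, adjusted p = 0.65). Both turned to calls in the higher direction per class tag, at 2.12 and 2.14. As a share of the class, 7SK took 7.07% in germ cells and 2.08% in somatic libraries, and SRP RNA 6.50% and 1.62%.

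The tmRNA entry (RF00023), the largest of the class, stood at 474, 673 and 561 TPM in germ cells, against 1019 to 4534 (median 2316) in somatic libraries. The groups did not overlap, and the log2 fold change was -1.98 ± 0.35 (edgeR adjusted p = 1.2e-05). This direction turned to 0.35 per class tag, 0.51 by RLE and 1.44 (adjusted p = 5.1e-05) when piRNAs and single rows were left out of the total. Within the class the tmRNA family was the leading one in every type but VSMC, at 63.7% in germ cells, 47.2% in PTM, 56.0% in Sertoli, 46.5% in Leydig, 50.2% in ISMC and 54.4% in TSMC. In VSMC it held 34.8% and Y RNA 39.8%, but in VSMC library 1 tmRNA led (35.6% against 25.1%), and without VSMC library 2 the means were 38.0% and 37.2%. Among the smaller tmRNA entries, the one named for Betaproteobacteria (RF01850) averaged 44.2 in germ cells and 28.5 to 101 in the somatic types (log2 fold change -0.32 ± 0.46, adjusted p = 0.53), and that named for Alphaproteobacteria (RF01849) stood at 4.93, 12.6 and 0.537 in germ cells and 6.20 to 36.2 in somatic libraries (-1.29 ± 0.64, adjusted p = 0.061; edgeR).

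**Figure D2:**
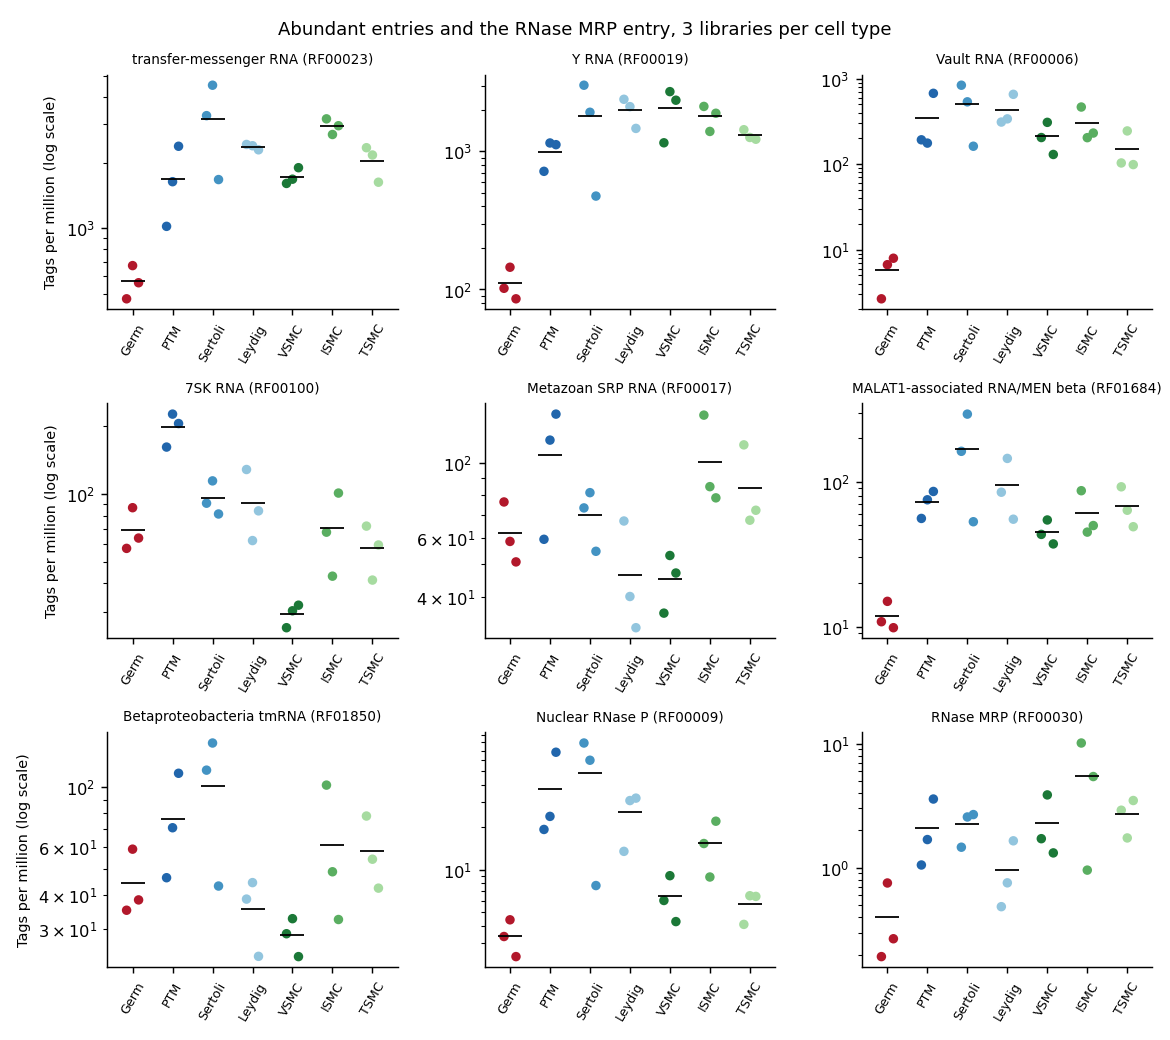
Level in TPM (tags per 1e6 tags, log axis, each panel with its own range) of 9 entries in the 3 libraries of each cell type, with the mean as a black line. Vault RNA, Y RNA and tmRNA in germ cells lie below every somatic library per 1e6 tags of all entries, the tmRNA difference turning per class tag, while 7SK and SRP RNA in germ cells lie within the somatic range.

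In germ against somatic cells 83.5% of all entries tested were called higher and 7.14% lower, and without piRNAs 10.9% and 62.1%. Families of long noncoding RNA regions had 7 entries tested against somatic cells, with 2 higher, 1 lower and 4 not past the threshold in germ cells (median log2 fold change 0.23). The lower one was the entry of the MALAT1-associated small cytoplasmic RNA and MEN beta RNA (RF01684), a tRNA-like RNA cut from the end of the nuclear transcript MALAT1. It stood at 10.8, 14.9 and 9.82 TPM in germ cells and 37.2 to 293 (median 59.7) in somatic libraries (-2.71 ± 0.55, edgeR adjusted p = 7.9e-05), a difference that was -0.36 per class tag, where it was not called, and turned to 0.73 when piRNAs and single rows were left out. The higher ones were conserved region 3 of GNAS antisense RNA 1 (RF02129), a transcript of the imprinted Gnas locus, and TUC338 (RF02271), a transcript of an ultraconserved element known from human liver cells. The GNAS antisense entry stood at 6.25, 1.03 and 11 in germ cells and 0 to 0.949 in somatic libraries (4.64 ± 0.64, edgeR adjusted p = 4.6e-07). TUC338 stood at 4.40, 4.65 and 2.99 in germ cells, against 0.105 in PTM library 2, 0.142 in Sertoli library 1 and no tag in the other 16 somatic libraries. Its 309 germ cell tags against 5 somatic tags give a ratio of rates of 298 (exact Poisson interval 126 to 925, counting error only).

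The other entries higher in germ cells were small in number of tags and carried names of bacterial, viral or messenger RNA elements. A CRISPR direct repeat entry (RF01322) differed most between the germ cell libraries themselves, with 56.5, 15.8 and 0.652 TPM against 0.0479 to 0.370 in somatic libraries (log2 fold change 7.08 ± 0.60, edgeR adjusted p = 9.3e-10). It held 1946 of the 2684 tags of the 33 CRISPR entries. All germ cell libraries lay above all somatic ones, though germ library 3 lay only just above.

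psbNH RNA (RF01753), a motif known from cyanobacteria, was even across the germ cell libraries, at 21.8, 17.8 and 17.4 TPM, against 0.0957 to 4.52 (median 0.745) in somatic libraries (4.62 ± 0.53, edgeR adjusted p = 5.2e-08). A ribosomal frameshift site entry (RF01792) stood at 9.75, 14.3 and 10.2 in germ cells and 0.316 to 1.84 (median 0.732) in somatic libraries (3.65 ± 0.46, adjusted p = 1.3e-07, edgeR; 2.01 and not called by TMM). A second frameshift site entry (RF01833) was called higher (2.87 ± 0.67, edgeR adjusted p = 0.00035) on 1 library alone, with 0.270, 9.45 and 0.192 in germ cells and 0.142 to 0.868 in somatic libraries. Without germ library 2 its log2 fold change turned to -0.94.

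Of the 58 viral or retroviral entries 9 were tested, with 3 higher, 3 lower and 3 not past the threshold in germ cells. Of all entries tested 83.5% were called higher and 7.14% lower, and without piRNAs 10.9% and 62.1%. The 3 higher entries are named here after their values were seen, as was TUC338. The Gag/pol translational readthrough site (RF01073), an element of retroviral messenger RNA, stood at 4.59, 0.873 and 1.92 TPM in germ cells and 0 to 2.86 in somatic libraries (4.59 ± 0.74, edgeR adjusted p = 4.2e-06). The overlap came from Leydig cells, which had 1.42, 0.0445 and 2.86. A viral pseudoknot entry (RF01109) stood at 1.73, 1.99 and 0.920 in germ cells and 0 to 0.242 in somatic libraries (119 and 10 tags, a ratio of rates of 57.4, exact Poisson interval 30.2 to 123.4). The HIV-1 stem-loop 3 packaging signal (RF01381) was higher by 1.7 ± 0.49 (edgeR adjusted p = 0.0024), which turned to -0.07 by TMM and lost its call without germ library 1 or 2. The lower ones included the HIV primer binding site entry (RF00375), at 0.0771, 0.0794 and 0.0383 in germ cells and 0.0483 to 7.38 (median 2.72) in somatic libraries (-5.07 ± 1.16, edgeR adjusted p = 0.00030), and the packaging signal of Mason-Pfizer monkey virus (RF00459, -2.49 ± 0.77, adjusted p = 0.0047), which turned to 0.81 when piRNAs and single rows were left out. RF00375 did not reach 10 counts in any germ cell library, so the filter favoured its call as lower.

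**Figure D3:**
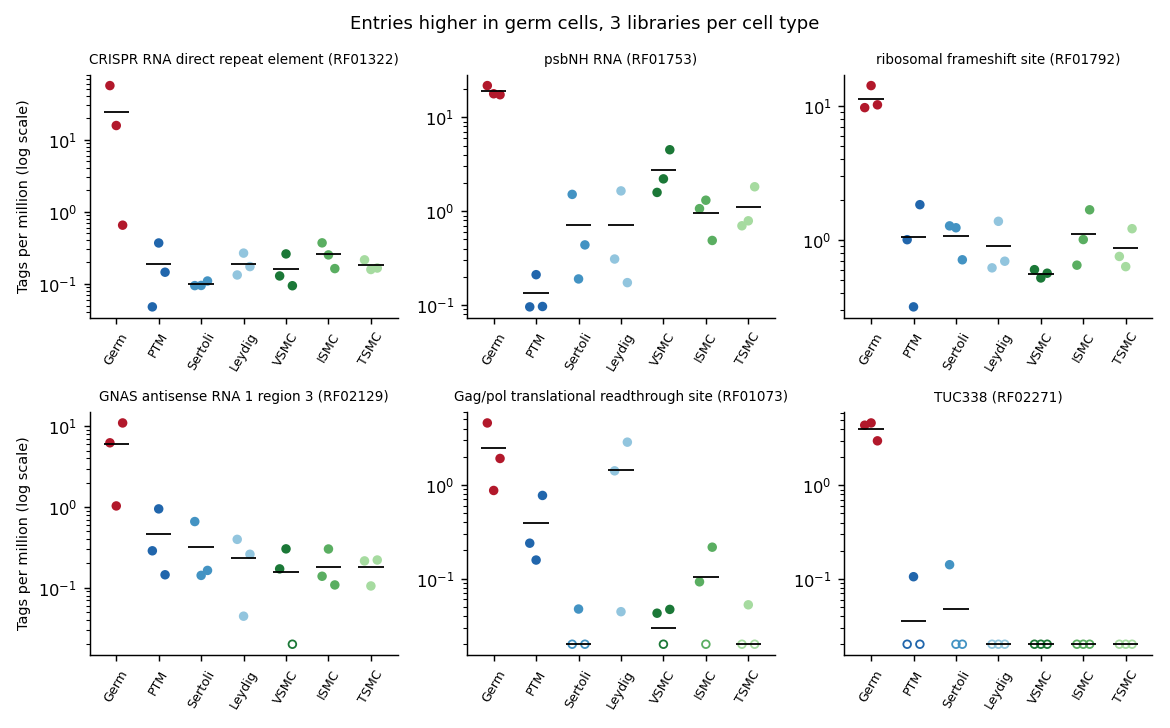
Level in TPM (tags per 1e6 tags, log axis, each panel with its own range) of 6 entries called higher in germ cells, in the 3 libraries of each cell type, with the mean as a black line and libraries without a tag, or means below that point, drawn at 0.02 (open circles for libraries). In 5 of the panels all germ cell libraries lie above all somatic libraries, and in the Gag/pol panel Leydig libraries reach 2.86.

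Of the 156 bacterial or archaeal entries 19 were tested, and germ cells had 1 higher (psbNH RNA), 12 lower and 6 not past the threshold, with a median log2 fold change of -3.57. Of all entries other than piRNAs 62.1% were called lower, so 12 of 19 is near that background. Bacterial RNase P class A (RF00010), the RNase P RNA of most bacteria, stood at 0.193, 0.278 and 0.153 TPM in germ cells and 2.79 to 17.0 (median 7.03) in somatic libraries, without overlap (-5.02 ± 0.75, edgeR adjusted p = 1.5e-06; lower under all 5 scalings). It did not reach 10 counts in any germ cell library, so the filter favoured its call as lower. By type it averaged most in ISMC and TSMC, with 17.0, 9.52 and 11.9 and with 13.6, 8.59 and 9.05.

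The entry of a small RNA of Mycobacterium, Ms_IGR-2 (RF02467), held 110756 of the 123775 tags of the bacterial families and set apart 2 of the 3 smooth muscle types. It stood at 1449, 1101 and 194 TPM in VSMC and 502, 754 and 428 in ISMC. In the third smooth muscle type, TSMC, it stood at 15.4, 13.3 and 5.30. The somatic testicular types lay below VSMC and ISMC, PTM lay above TSMC and the other two overlapped TSMC, with 165, 72.3 and 84.8 in PTM, 3.40, 56.5 and 68.3 in Sertoli and 15.7, 14.3 and 137 in Leydig, and germ cells were at 0.887, 4.96 and 0.728. Germ cells were lower than the somatic types under all 5 scalings (log2 fold change -5.60 ± 1.13, edgeR adjusted p = 9.1e-05), though the libraries overlapped through Sertoli library 1. All VSMC and ISMC libraries lay above all others, and VSMC library 3 above the highest PTM library by a small margin.

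Ms_IGR-2 brought the bacterial families to 31.9%, 18.6% and 4.62% of class tags in VSMC and 8.03%, 14.7% and 7.92% in ISMC, against 1.07% to 1.25% in TSMC, 2.42% to 7.43% in PTM and 2.30% to 2.90% in germ cells. In the averaged contrast of the 3 smooth muscle types with the somatic testicular types its difference of 1.5 ± 0.58 was not called (edgeR adjusted p = 0.16), nor was that of PTM against the 3 smooth muscle types (-0.74 ± 0.84, adjusted p = 0.87). Each contrast averages TSMC with VSMC and ISMC.

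Another pair of entries named for actinobacterial small RNAs, chosen after their values were seen, had their highest type means in VSMC and ISMC as well. Ms_IGR-5 (RF02471) stood at 1.84, 2.21 and 0.659 in VSMC and 0.972, 2.42 and 1.57 in ISMC, against 0 to 0.161 in TSMC, 0.264 to 1.0 in PTM and 0 to 0.0397 in germ cells. Ms_AS-8 (RF02466) stood at 1.33, 0.867 and 0.329 in VSMC and 0.278, 0.554 and 0.271 in ISMC, and had no tag in TSMC. PTM library 3 (0.290) and Sertoli library 2 (0.285) lay above ISMC libraries 1 and 3, and for Ms_IGR-5 PTM libraries 1 and 3 and Sertoli library 2 lay above VSMC library 3. The 3 entries share libraries, and no measure of their likeness was tested. The endothelial marker miR-126a-3p was also highest in VSMC, at 3609 per 1e6 mature tags, with 1324 in ISMC, 1400 in PTM and 211 in TSMC; its part in these values was not tested.

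**Figure D4:**
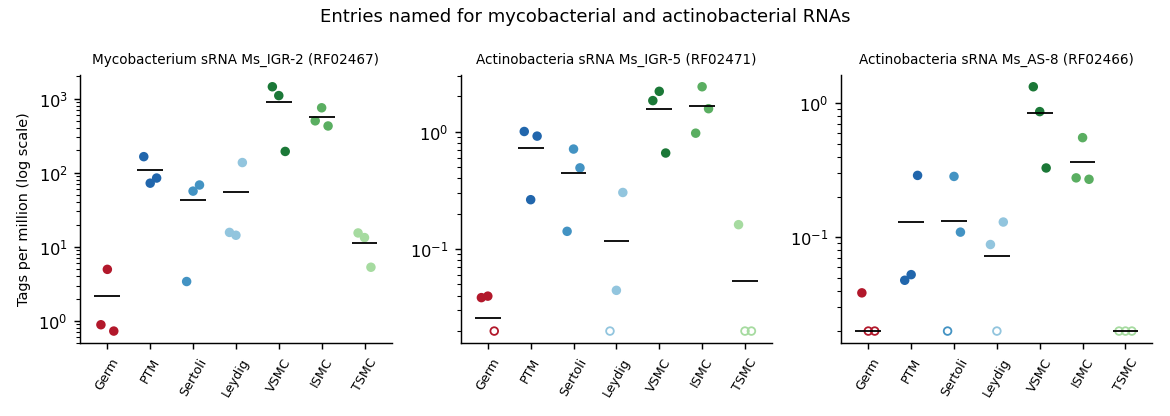
Level in TPM (tags per 1e6 tags, log axis, each panel with its own range) of 3 entries named for mycobacterial or actinobacterial small RNAs in the 3 libraries of each cell type, with the mean as a black line and libraries without a tag, or means below that point, drawn at 0.02 (open circles for libraries). VSMC and ISMC have the highest means in all 3 panels, and TSMC, the third smooth muscle type, lies at 5.30 to 15.4 in the Ms_IGR-2 panel.

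The series was built around PTM cells, which were compared with the other testicular types and with smooth muscle cells of other tissues. These comparisons share the PTM libraries. Against Sertoli, Leydig and germ cells, 2 of the 61 entries were called, 1 higher and 1 lower (20 had an unadjusted p under 0.05, edgeR). That is 3.28% of the entries, against 2.09% of all entries tested and 16.7% of those other than piRNAs. Per direction, 2.05% of all entries tested were higher and 0.0414% lower, and without piRNAs 16.2% and 0.441%. The median log2 fold change was 0.52 over the 61 entries, -2.25 over all entries tested and 1.27 without piRNAs. DESeq2 called 0 of the 61, as did a fit without the germ cell libraries. The lower entry was psbNH RNA, at 0.0957, 0.211 and 0.0966 in PTM and 0.173 to 21.8 in the other 9 libraries, where germ cells held the high values (-3.94 ± 0.97, edgeR adjusted p = 0.034; -0.08 and not called by TMM, and lost without any 1 PTM library). The higher one, named after its values were seen, was the yybP-ykoY leader (RF00080), a manganese riboswitch of bacteria, at 1.05, 0.316 and 0.580 in PTM and 0 to 0.380 in the others (2.63 ± 0.60, edgeR adjusted p = 0.021; lost without PTM library 1 or 3 or germ library 1 or 3).

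7SK RNA had its highest levels in PTM cells, at 161, 225 and 205 TPM, against 57.2 to 128 in the 9 Sertoli, Leydig and germ cell libraries. The libraries did not overlap, yet the log2 fold change of 1.22 ± 0.37 was not past the threshold (edgeR adjusted p = 0.10). Sertoli cells had 90.7, 114 and 81.3 and Leydig cells 128, 62.0 and 83.9. Vault RNA was not past the threshold either (1.68 ± 0.50, adjusted p = 0.094, edgeR), nor was Ms_IGR-2 (2.63 ± 0.73, adjusted p = 0.070). tmRNA (0.05 ± 0.31) and Y RNA (0.44 ± 0.40) were not called either.

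Against the 3 smooth muscle types, PTM cells had 12 entries called, 8 higher and 4 lower, and 49 were not past the threshold. These are 19.7% of the entries, against 14.1% of all entries tested and 29.7% of those other than piRNAs (13.0% higher and 1.08% lower, and without piRNAs 15.8% and 13.9%), and the median log2 fold change was -0.04. The count rested on PTM library 3, without which 4 entries were called, and on the scaling, since TMM called 53, all higher, and DESeq2 called 0. The TMM factors ranged from 0.0432 to 3.98 over the libraries of this sparse table, and from 0.0432 to 2.61 among the 3 Leydig libraries alone.

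7SK and RNase P RNA were on the higher side. 7SK stood at 161, 225 and 205 TPM in PTM cells, against 25.5, 30.3 and 32 in VSMC, 67.5, 43.1 and 101 in ISMC and 71.8, 41.4 and 59.2 in TSMC. Each PTM library was above each smooth muscle library, and the log2 fold change was 2.0 ± 0.36 (edgeR adjusted p = 0.00072), with 1.82 to 2.49 under the scalings other than TMM. RNase P RNA stood at 19.3, 23.9 and 68.1 in PTM and 4.09 to 22.1 in smooth muscle libraries (2.16 ± 0.55, edgeR adjusted p = 0.011), a call that ended without PTM library 3 (1.38, adjusted p = 0.24). Vault RNA (0.71 ± 0.52) and SRP RNA (0.53 ± 0.40) were not past the threshold.

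The other higher entries were sparse and are named after their values were seen. Conserved region 1 of NEAT1 (RF01955), the RNA that builds nuclear paraspeckles, had 24 tags in PTM and 5 in smooth muscle libraries (ratio of rates 14.5, exact Poisson interval 5.43 to 48.7; edgeR adjusted p = 0.00068). The HIF-1 alpha IRES (RF00449), an internal ribosome entry site of the messenger RNA of the hypoxia factor HIF-1 alpha, had 32 and 8 tags (12.1, 5.46 to 30.4; adjusted p = 0.0016). The MAT2A 3'UTR stem loop D (RF02263), an element of the messenger RNA of a methionine adenosyltransferase, stood at 1.20, 1.69 and 1.35 in PTM and 0 to 0.497 in smooth muscle libraries (2.61 ± 0.78, edgeR adjusted p = 0.028). The antizyme frameshifting element (RF00381, 2.14 ± 0.68), the Gag/pol readthrough site (3.14 ± 0.98) and the viral pseudoknot RF01109 (2.87 ± 0.90) were also called, with 7, 6 and 10 of the fits that left out 1 library losing the call.

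On the lower side stood the XIST 3' intron conserved motif (RF02266), Y RNA-like, psbNH RNA and mini-ykkC, the last named after its values were seen, and none of the 4 kept its call by TMM. The XIST motif had 4 tags in PTM and 1914 in smooth muscle libraries (ratio of rates 0.00632), and mini-ykkC 1 and 129. Y RNA-like stood at 1.68, 1.26 and 2.22 TPM in PTM and 6.85 to 31.3 in smooth muscle libraries, without overlap (-2.87 ± 0.67, edgeR adjusted p = 0.0057), whereas TMM turned it to 2.51. psbNH RNA (-3.36 ± 0.94, adjusted p = 0.019, edgeR) turned to 1.85 by TMM and lost its call without PTM library 1 or 3.

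The last comparison set the 3 smooth muscle types against the 3 somatic types of the testis, leaving germ cells out. There were 12 calls among the 61 entries, 6 higher and 6 lower in smooth muscle, and 49 entries were not past the threshold. These are 19.7% of the entries, against 6.72% of all entries tested and 34.7% of those other than piRNAs (1.67% higher and 5.05% lower, and without piRNAs 19.2% and 15.6%), with a median log2 fold change of 0.06. TMM gave 2 higher and 40 lower, and DESeq2 called 1 entry. Leaving out 1 library gave 5 calls without Leydig library 1, 6 without PTM library 3, 7 without VSMC library 1 and 19 without germ library 2, and 22 were called when piRNAs were left out of the fit.

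The XIST 3' intron conserved motif gave the widest difference. XIST is the long noncoding RNA that coats the inactive X chromosome of female cells. The testicular types are from males and the smooth muscle donors' sex is not given, so sex, tissue and source cannot be told apart. The motif stood at 5.19, 7.93 and 1.41 TPM in VSMC, 33.9, 17.8 and 17.1 in ISMC and 4.57, 2.90 and 2.10 in TSMC, against 0, 0.158 and 0.0483 in PTM cells and no tag in Sertoli, Leydig and germ cells. The 9 smooth muscle libraries had 1914 tags and the 9 somatic testicular libraries 4, a ratio of rates of 494 (exact Poisson interval 193 to 1816, counting error only). The entry was called under all 5 scalings (edgeR adjusted p = 3.3e-06) and with each single library left out. Between germ cells, with no tag, and the somatic testicular libraries, with 4, no difference was detectable at this depth, and germ against somatic cells was not called under any setting run (lowest adjusted p over edgeR and DESeq2 fits = 0.21). Another Xist entry, the XIST RNA A repeat (RF02162), named after its values were seen, did not share this pattern. It stood at 0.0857, 0.607 and 0 in VSMC, 0.0926, 0.605 and 0.705 in ISMC and 0.807, 0.316 and 1.10 in TSMC, against 0.144, 0.527 and 0.242 in PTM, 0, 0.0475 and 0.656 in Sertoli and 0.398, 0.178 and 0.173 in Leydig cells, and it was among the entries not called among the 7 types.

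Y RNA-like was higher in smooth muscle, at 6.85 to 31.3 (median 9.61) TPM against 0.954 to 10.6 (median 2.31) in somatic testicular libraries (2.04 ± 0.41, edgeR adjusted p = 0.0023), but turned to -1.74 by TMM. Y RNA itself was not called (0.15 ± 0.29). mini-ykkC (RF01068), a guanidine riboswitch of bacteria, had 129 tags in smooth muscle and 2 in somatic testicular libraries (ratio of rates 66.6, exact Poisson interval 18.1 to 556, edgeR adjusted p = 1.6e-05) and was called under all 5 scalings. Both mini-ykkC and the XIST motif reached 10 counts only in smooth muscle libraries, so the filter favoured their calls as higher. The other 3 higher entries, named after their values were seen, were the packaging signal of bovine leukaemia virus (RF00192, 4.53 ± 1.22, adjusted p = 0.032), RsmY RNA (RF00195, 1.82 ± 0.51, adjusted p = 0.031, -1.81 by TMM) and F6 RNA of Mycobacterium tuberculosis (RF01791, 2.76 ± 0.80, adjusted p = 0.039; edgeR), and 11, 10 and 15 of the fits that left out 1 library lost these calls.

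All 6 lower entries kept their call and direction under the 5 scalings. TMM, among these 5, called most of the entries tested lower, so keeping a lower call under it is no separate support. DESeq2, not among the 5, called none of these 6 entries. Leaving out 1 library ended the call of the antizyme element in 9 fits, that of RF01340 in 13, and that of NEAT1 region 1 without Sertoli library 2 (adjusted p = 0.9999, edgeR). 7SK stood at 25.5 to 101 (median 43.1) TPM in smooth muscle and 62.0 to 225 (median 114) in somatic testicular libraries, which overlap (-1.29 ± 0.28, edgeR adjusted p = 0.0052). RNase P RNA stood at 4.09 to 22.1 (median 6.53) and 7.71 to 79.2 (median 30.9; -2.12 ± 0.44, adjusted p = 0.0037, edgeR). RNase MRP RNA, by contrast, averaged 3.50 ± 2.85 in smooth muscle and 1.77 ± 1.0 in somatic testicular libraries (SD, n = 9 each; log2 fold change 0.97 ± 0.51, edgeR adjusted p = 0.46). The HIF-1 alpha IRES had 8 tags in smooth muscle and 66 in somatic testicular libraries (ratio of rates 0.125, exact Poisson interval 0.0519 to 0.261, edgeR adjusted p = 0.0040). NEAT1 region 1 had 5 and 60 tags (0.0861, interval 0.0270 to 0.212, edgeR adjusted p = 0.017). Neither reached 10 counts in a smooth muscle library, so the filter favoured calls as lower. The antizyme element was lower by -1.89 ± 0.54 (edgeR adjusted p = 0.034), and a CRISPR repeat entry (RF01340) stood at 0 to 0.538 in smooth muscle and 0.133 to 3.92 in somatic testicular libraries (-2.22 ± 0.67, adjusted p = 0.0497, edgeR), just inside the threshold.

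**Figure D5:**
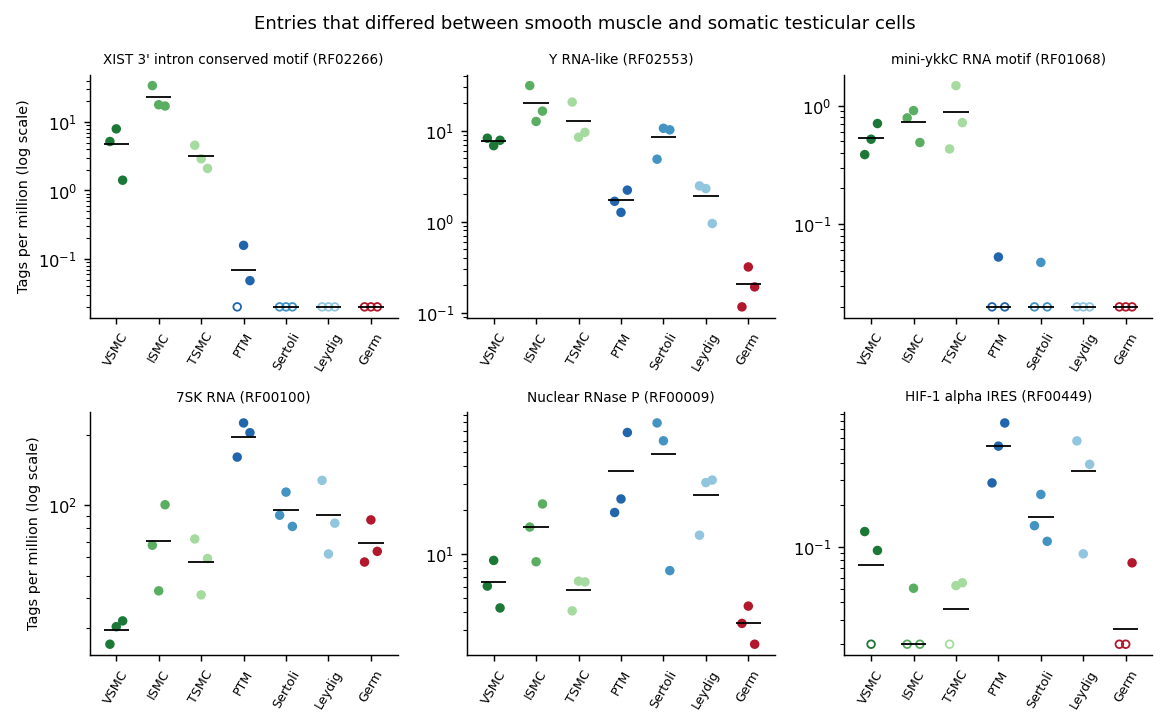
Level in TPM (tags per 1e6 tags, log axis, each panel with its own range) of 6 entries that differed between smooth muscle and somatic testicular cells, in the 3 libraries of each type, with germ cells at the right, the mean as a black line and libraries without a tag, or means below that point, drawn at 0.02 (open circles for libraries). The XIST motif and mini-ykkC are higher in all smooth muscle libraries than in any testicular library, Y RNA-like is higher in smooth muscle but turns by TMM, and 7SK, RNase P and the HIF-1 alpha IRES are lower.

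Elements of messenger RNAs had 13 of 40 entries tested. Over all entries tested in germ against somatic cells 83.5% were called higher and 7.14% lower, and without piRNAs 10.9% and 62.1%. Among the messenger RNA elements 2 were higher in germ cells (both frameshift sites), 5 lower and 6 not past the threshold, with a median log2 fold change of -1.33. Among the lower ones the bip IRES (RF00223), of the messenger RNA of an endoplasmic reticulum chaperone, stood at 0.154, 0.476 and 0.0383 TPM in germ cells and 0.252 to 2.31 (median 0.825) in somatic libraries (-1.78 ± 0.73, edgeR adjusted p = 0.027). That direction turned to 0.42 per class tag and 1.52 when piRNAs and single rows were left out, and the call ended without germ library 1 or 3. Some entries were high in 1 or 2 libraries. The pseudoknot entry RF01072 stood at 28.5 in TSMC library 1 and at most 1.16 in the other 20 libraries, and the CRISPR entry RF01317 reached 3.11 in Leydig library 2 and 1.24 in Leydig library 1 and at most 0.323 elsewhere.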

How the data were processed

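Total RNA was extracted with TRNzol and sequenced as small RNA libraries, per the labels' protocols. The submitters' processing notes name Bowtie2 and mm10, without versions. The authors deposited 1 table of raw tag counts per entry and library, with the class of each entry. The TPM columns that the authors deposited beside them, proportional to the counts within a library and without a length correction, were used only to check the library totals. The sources used here give neither tag lengths nor the rule for tags that match several entries, so near-identical families can share or split tags. All 21 count columns were matched to libraries by name, and 0 columns of per-sample values were left unused.

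Levels in TPM were computed from the counts and the sum of all entries. Entries that reached 10 counts in 3 or more libraries were fitted with edgeR 4.0.16 (R 4.3.3, robust quasi-likelihood fit, the sum of all entries as library size, 7 groups, 14 residual degrees of freedom, common dispersion 0.712). Single rows for intergenic, intron, exon and repeat tags stayed in the library totals but out of the tests. The standard error (SE) of an edgeR log2 fold change was derived from its test, as the absolute fold change over the square root of F. It therefore restates the p-value and is no separate measure of spread. Scripts were tested on simulated data with 200 changed entries, split evenly between higher and lower, and a lower dispersion than that of the fit. That test therefore does not show how the fit performs on these data. DESeq2 1.42.0 was an alternative. Intervals and floors (3 tags) cover counting error only, since tags are not independent molecules. Families were assigned by hand from the entries' names.

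The members and lists were chosen with earlier results of these data known. Named entries are the 10 with the highest share of the class, the 5 with the largest fold change in each direction of each contrast among those called with at least 5 TPM in a type, the leading 3 of each family and the leading entries of each type. Entries said to be named after their values were seen fall outside this rule.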

Additional observations from a re-analysis of the deposited data

How the results depend on the processing

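In germ against somatic cells the 37 calls of 61 entries tested (17524 of 19332 over all entries) became 68 of 360 with no filter (53389 of 60953), 21 of 27 with at least 50 counts (6887 of 7337), and 19 with DESeq2, 15 higher and 4 lower. For PTM against the other testicular types the 2 calls became 47 by TMM, 1 by RLE, 1 with piRNAs and single rows left out of the total, 0 of 360 with no filter, 14 with piRNAs left out of the fit (an alternative chosen after seeing the data), 0 with DESeq2, 0 without germ cells, and 0 to 8 with 1 library left out. For PTM against smooth muscle the 12 became 53 by TMM, 6 with the replicate block, 0 with DESeq2, and 4 to 13 with 1 library left out. For smooth muscle against somatic testicular types the 12 became 42 by TMM, 7 of 360 with no filter, 22 with piRNAs left out of the fit, 1 with DESeq2, and 5 to 19 with 1 library left out. Among the 7 types the 45 became 23 of 27 with at least 50 counts, 26 with the replicate block, 9 with DESeq2, and as few as 27 with 1 library left out. The causes were not tested.

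No pairing of the libraries by replicate number was detected: of 63 same-numbered pairs 15 had a correlation over 0.1 (range -0.50 to 0.40), and 6 of 21 libraries correlated best with their own number. The rule asked for a correlation over 0.1 in every pair, over 61 entries, which a real pairing can also fail.

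The ratio of the class share in germ cells to that in somatic types was 0.194, and 2.11 with piRNAs and single rows left out or 3.0 per mature miRNA tag. Counting entries with at least 10 counts gave means of 28 in germ cells, 35.7 in PTM, 37.7 in Sertoli, 35.7 in Leydig, 38 in VSMC, 39.3 in ISMC and 37 in TSMC. Per class tag the germ to somatic ratio was 3.41 for 7SK, 68.9 for CRISPR repeats (20.7 without germ library 1, chosen after seeing the data), 0.775 for RNase P and RNase MRP, 0.344 for Y RNA, 0.413 for bacterial or archaeal RNAs, 1.36 for long noncoding RNA regions, 10.5 for messenger RNA elements, 16.2 for the other entries, 4.02 for SRP RNA, 1.32 for tmRNA, 0.0939 for vault RNA and 3.19 for viral elements.

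Some log2 fold changes of named entries turned in sign. In germ against somatic cells RLE turned tmRNA to 0.51, 7SK to 2.31, SRP RNA to 2.34, RF01850 to 2.14, RNase P to 0.16 and the bip IRES to 0.49, and DESeq2 gave 0.51, 2.31 and 2.34 for the first 3, 0.16 for RNase P and 0.47 for the bip IRES. Class total turned the same 6 to 0.35, 2.12, 2.14, 2.02, 0.026 and 0.42, and leaving piRNAs and single rows out to 1.44, 3.25, 3.28, 3.09, 1.10 and 1.52, along with RF01684 (0.73), RNase MRP (0.77), RF01849 (2.02), RF01072 (2.60) and RF00459 (0.81). RF01381 turned to -0.070 by TMM, and RF01833 ranged from -0.94 to 3.42 with 1 library left out. TMM also turned, in PTM against testicular types, RF01340 (3.85) and RF00459 (3.55). In PTM against smooth muscle it turned tmRNA (5.04), Y RNA (4.65), Ms_IGR-2 (4.35), RF01322 (5.35), psbNH (1.85), RF00010 (4.71), Y RNA-like (2.51), RNase MRP (4.95), RF01833 (4.92), RF01849 (4.78), RF00375 (4.50), RF01072 (3.54) and RF00459 (4.47). In smooth muscle against testicular types it turned Y RNA (-3.69), SRP RNA (-3.81), RF00010 (-2.95), Y RNA-like (-1.74), RF01833 (-3.28), RF01849 (-2.81) and RsmY (-1.81). Over the alternatives, named calls kept direction and threshold in 1183 cases, lost the threshold in 194 and turned in 21. Most of these cases come from fits that left out 1 library and share nearly all their data, so they are no separate support. By setting, DESeq2 kept 14 named calls, lost 31 and turned 3, and the replicate block kept 31 and lost 17. Depth limits the 214 entries with under 10 tags.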
